A study of Mus musculus with 12 samples.

Results

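The genes described here are 6 matrix metalloproteinases (Mmp8, Mmp9, Mmp12, Mmp13, Mmp14 and Mmp19) and 2 tissue inhibitors of metalloproteinases (Timp1 and Timp2) in mouse dendritic cells. They were chosen by name, with earlier results of these data known, so counts over the 8 genes are a description and not a test. All 8 were present among the 11786 genes of the expression table, and all 8 passed the filter on low values. Bone marrow of wild-type mice and of mice that carry the label Ythdf1-/- was cultured with GM-CSF, a growth factor that yields dendritic cells. The protein YTHDF1 binds mRNA that carries N6-methyladenosine. RNA of either genotype was sequenced from cells alone and from cells kept overnight with necrotic B16-OVA, a mouse melanoma line that carries ovalbumin, after which the dendritic cells were purified. These 4 groups held 2 libraries each, called here wild type alone, wild type with lysate, KO-labelled alone and KO-labelled with lysate. No source used here gives the strain, the age, the altered part of Ythdf1 or whether both libraries in a group had their own mouse. The p-values therefore describe the spread between libraries, which may be technical. The 4 immunoprecipitation samples of the series were not analysed here.

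Matrix metalloproteinases are zinc-dependent enzymes that cleave collagens, elastin and other proteins outside the cell. They are made as inactive precursors, become active when a propeptide is removed, and are held in check by the TIMPs, which bind the active site. Some are secreted by myeloid cells or stored in granules, and others are anchored in the cell membrane, where they let a cell move through tissue and shed surface proteins. Levels are log2 values on the authors' regularized scale, in which a difference of 1 is a doubling. The scale is not corrected for transcript length, so levels were compared between libraries and not between genes. "Rose", "fell", "higher" and "lower" with an adjusted p refer to limma's test over all genes with Benjamini-Hochberg adjustment and a threshold of 0.05. Some fits left out 1 library, which leaves 1 in its group. Most of them also called fewer of all genes in the comparisons with that group. A smaller list count there need not be particular to the list.

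The transcript of Ythdf1 lay between 9.43 and 9.72 in the wild-type libraries and between 9.43 and 9.53 in the KO-labelled ones, so its level did not separate the genotype labels, and every direction between genotypes rests on those labels. All 14 dendritic cell markers on the list (Itgax, Flt3, Zbtb46 and Cd74 among them) were in the table. So were all 18 macrophage and monocyte markers and 15 of 17 neutrophil markers, so presence in the table does not identify the cell type. With no read counts in the table, the depth of each library is unknown.

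Mmp12, Mmp13 and Mmp8 lie in one stretch of chromosome 9 that holds 10 metalloproteinase genes in the GRCm38.p6 annotation, of which 4 were measured (Mmp13, Mmp12, Mmp8 and Mmp27, in that order along the chromosome). The first 3 rose with lysate in both genotypes, as described below, while Mmp27 did not pass the test (0.23, adjusted p = 0.0978 in wild type and 0.049, adjusted p = 0.761 in KO-labelled cells, limma). Between genotypes without lysate Mmp8 was lower, Mmp13 higher and Mmp12 not called. The bases around the starts of the 3 genes that rose are shown, and Mmp12 has 2 annotated starts. The windows run from 250 bases before to 50 bases after the annotated start, come from RefSeq (GRCm38.p6, plus strand) and lie at chr9:7272264-7272563 for Mmp13, chr9:7344147-7344446 and chr9:7347124-7347423 for Mmp12, and chr9:7558179-7558478 for Mmp8. Capitals mark TGANTCA, the letters of an AP-1 element, which reads the same on both strands.
Mmp13: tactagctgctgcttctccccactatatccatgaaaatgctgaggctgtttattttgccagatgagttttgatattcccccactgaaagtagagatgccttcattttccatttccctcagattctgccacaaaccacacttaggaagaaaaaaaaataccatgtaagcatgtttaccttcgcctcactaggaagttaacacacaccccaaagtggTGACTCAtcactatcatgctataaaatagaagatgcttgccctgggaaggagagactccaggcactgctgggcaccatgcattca
Mmp12, first start: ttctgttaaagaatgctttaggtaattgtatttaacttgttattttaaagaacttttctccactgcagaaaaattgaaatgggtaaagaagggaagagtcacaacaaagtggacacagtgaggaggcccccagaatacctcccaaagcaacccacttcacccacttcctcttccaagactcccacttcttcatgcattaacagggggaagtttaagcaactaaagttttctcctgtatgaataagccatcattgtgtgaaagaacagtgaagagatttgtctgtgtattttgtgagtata
Mmp12, second start: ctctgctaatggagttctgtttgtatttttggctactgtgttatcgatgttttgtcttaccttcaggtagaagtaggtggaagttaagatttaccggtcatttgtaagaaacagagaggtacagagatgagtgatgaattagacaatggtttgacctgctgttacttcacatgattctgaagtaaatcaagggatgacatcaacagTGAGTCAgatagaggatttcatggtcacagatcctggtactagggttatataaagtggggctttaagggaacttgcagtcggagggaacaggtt
Mmp8: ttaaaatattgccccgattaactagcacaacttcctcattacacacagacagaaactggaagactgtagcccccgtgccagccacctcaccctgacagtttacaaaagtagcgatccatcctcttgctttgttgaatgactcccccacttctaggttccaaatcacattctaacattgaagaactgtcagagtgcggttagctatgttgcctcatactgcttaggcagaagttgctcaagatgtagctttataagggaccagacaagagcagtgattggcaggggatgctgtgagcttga

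The AP-1 letters began 35 bases before the start of Mmp13 and 44 bases before the second start of Mmp12, and were absent from the first Mmp12 window and from the windows of Mmp8, Mmp14, Timp1 and Timp2. Of all 32851 windows of this length in the RefSeq table, 7.81% held them. The letters AGGAAG, the core of an ETS element, searched on both strands and not overlapping the AP-1 letters in any of these windows, occurred in 35.4% of all windows. They stood 109 and 62 bases before the start of Mmp13, 87 bases before the first start of Mmp12 and 220 bases before that of Mmp8, and were absent from the second Mmp12 window. Genes not called with lysate held them too. Mmp14 had them 209 bases before its start, and Timp1 175 and 99 bases before its start and again after it. The Timp2 window held none. These are matches of letters and do not show binding. The promoter table matched 6 of the 8 genes, without Mmp9 and Mmp19.

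**Figure D1:**
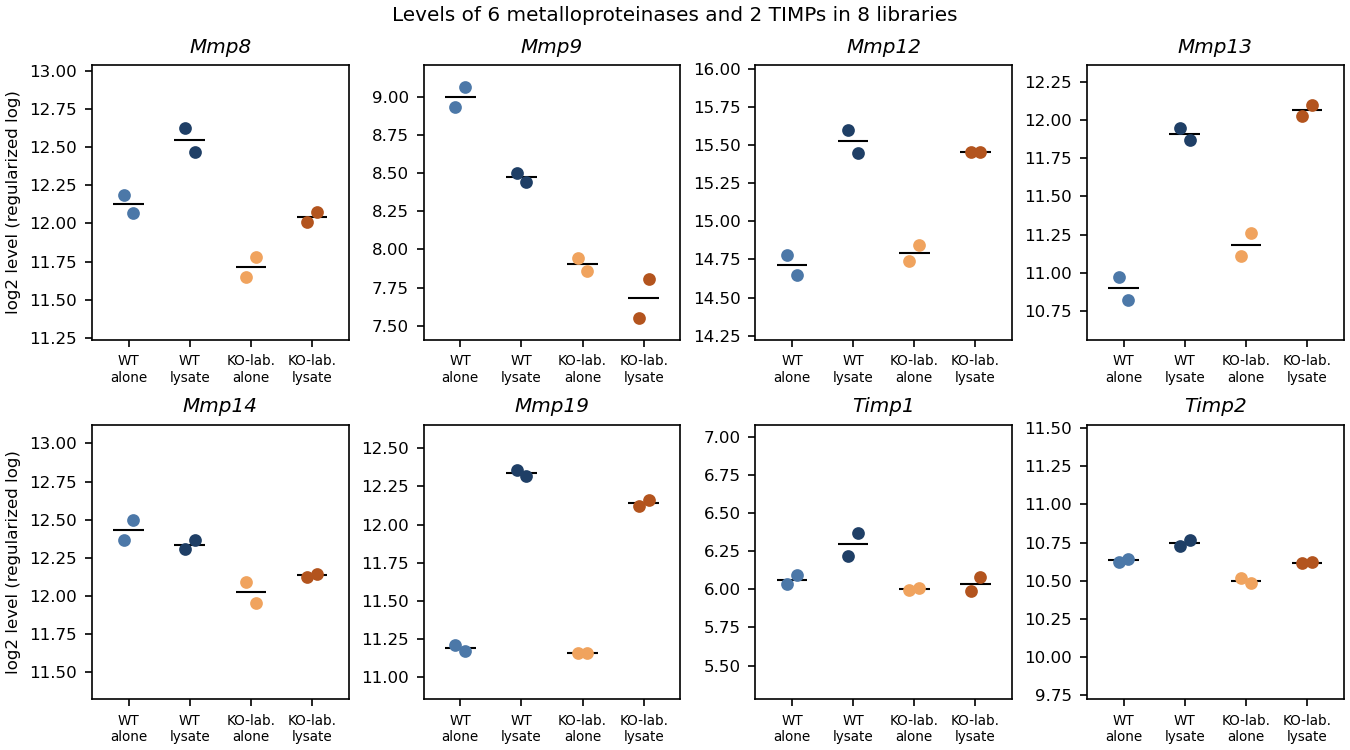
Log2 level of each gene (y axis, regularized log scale, each panel spanning the same height) in the 4 groups (x axis, WT for wild type, KO-lab. for KO-labelled); points are the 2 libraries of a group and lines their mean. Mmp12, Mmp13 and Mmp19 were high in the libraries with lysate of both genotypes, Mmp9 was low in the KO-labelled libraries, and Timp2 spanned only 10.48 to 10.77.

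The question of the first comparison was how the dendritic cells responded to dying tumour cells. Mmp19, Mmp13 and Mmp12 rose between 1.58- and 2.21-fold with lysate in both genotypes, Mmp8 rose less, and Mmp9 fell in wild type. In wild type 4 of the 8 genes rose and 1 fell, where 10.2% of all genes tested rose and 11.3% fell. In KO-labelled cells 4 rose and 0 fell, where 8.28% of all genes rose and 6.92% fell. The median difference over the 8 genes was 0.33 in wild type and 0.22 in KO-labelled cells, beside medians of -0.01 and -0.001 over all 11785 genes tested.

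Mmp19 encodes a secreted protease of basement membrane proteins. Its level was 11.21 and 11.17 in wild type alone, 12.36 and 12.32 in wild type with lysate, 11.16 and 11.16 in KO-labelled alone, and 12.12 and 12.16 in KO-labelled with lysate. All 4 lysate libraries lay above all 4 libraries without it. The rise was 2.21-fold in wild type (log2 difference 1.15 ± 0.062, SE of the fit, adjusted p = 1.41e-07) and 1.98-fold in KO-labelled cells (0.99 ± 0.062, adjusted p = 1.46e-06). Among all genes tested it had the 16th and the 14th highest rise of those comparisons. Mmp19 overlaps Tmem198b in the annotation, whose own difference with lysate was 0.029 ± 0.099 in wild type (adjusted p = 0.867) and 0.17 ± 0.099 in KO-labelled cells (adjusted p = 0.271).

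Mmp13 encodes a collagenase that cleaves fibrillar collagen. Its level was 10.97 and 10.82 in wild type alone, 11.95 and 11.87 in wild type with lysate, 11.11 and 11.26 in KO-labelled alone, and 12.03 and 12.10 in KO-labelled with lysate. Each lysate group stood clear of its untreated group, and the 4 groups did not overlap with each other. The rise was 2.02-fold in wild type (1.01 ± 0.077, adjusted p = 2.61e-06) and 1.84-fold in KO-labelled cells (0.88 ± 0.077, adjusted p = 1.17e-05).

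Mmp12 encodes macrophage elastase, which cleaves elastin. Its level was 14.78 and 14.65 in wild type alone, 15.60 and 15.45 in wild type with lysate, 14.74 and 14.85 in KO-labelled alone, and 15.45 and 15.45 in KO-labelled with lysate. The lysate libraries were again the high ones, while the 2 genotypes overlapped within each treatment. The rise was 1.76-fold in wild type (0.81 ± 0.076, adjusted p = 1.51e-05) and 1.58-fold in KO-labelled cells (0.66 ± 0.076, adjusted p = 0.000132).

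Mmp8 encodes neutrophil collagenase. Its level was 12.19 and 12.07 in wild type alone, 12.63 and 12.47 in wild type with lysate, 11.65 and 11.78 in KO-labelled alone, and 12.01 and 12.08 in KO-labelled with lysate. Wild type with lysate was highest and KO-labelled alone lowest, and the other two groups overlapped. The rise with lysate was 1.34-fold in wild type (0.42 ± 0.078, adjusted p = 0.00237) and 1.26-fold in KO-labelled cells (0.33 ± 0.078, adjusted p = 0.0127). The latter call was lost without KO-labelled alone replicate 1 (adjusted p = 0.0749), KO-labelled lysate replicate 1 (0.0769) or KO-labelled lysate replicate 2 (0.13).

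Mmp9 encodes gelatinase B, a protease of denatured and basement membrane collagen that neutrophils store in granules. Its level was 8.94 and 9.07 in wild type alone, 8.50 and 8.44 in wild type with lysate, 7.95 and 7.86 in KO-labelled alone, and 7.55 and 7.81 in KO-labelled with lysate. It was the one gene of the 8 that fell with lysate in wild type, 1.44-fold (-0.53 ± 0.097, adjusted p = 0.00215). In KO-labelled cells the difference was -0.22 ± 0.097 (95% interval -0.43 to -0.015, adjusted p = 0.138 by limma).

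The membrane protease and both inhibitors passed the test in neither genotype with lysate. Mmp14 encodes MT1-MMP, which cleaves collagen at the cell surface and, together with TIMP2, activates the precursor of MMP2. Its lysate difference was -0.096 ± 0.072 in wild type (95% interval -0.25 to 0.058, adjusted p = 0.364) and 0.11 ± 0.072 in KO-labelled cells (-0.043 to 0.27, adjusted p = 0.321). Timp2 stood at 10.62 and 10.64 in wild type alone and at 10.73 and 10.77 with lysate, a difference of 0.12 ± 0.064 (-0.023 to 0.25, adjusted p = 0.219). In KO-labelled cells Timp2 went from 10.52 and 10.48 to 10.61 and 10.62, a difference of 0.12 ± 0.064 (-0.021 to 0.26, adjusted p = 0.24). Both intervals for Timp2 lie below the rises of Mmp12, Mmp13 and Mmp19 in the same cells.

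Timp1, the inhibitor that is known to bind the precursor of MMP9, was at 6.03 and 6.09 in wild type alone, 6.22 and 6.37 in wild type with lysate, 5.998 and 6.007 in KO-labelled alone, and 5.99 and 6.08 in KO-labelled with lysate. Only wild type with lysate stood clear of the other groups. All its levels are under the medians of the libraries (8.53 to 8.55), a range where the regularized scale understates changes. Its lysate difference was 0.23 ± 0.09 in wild type (0.039 to 0.43, adjusted p = 0.0818) and 0.032 ± 0.09 in KO-labelled cells (-0.16 to 0.23, adjusted p = 0.842). Timp1 overlaps Syn1 in the annotation, whose lysate differences were 0.22 and 0.088 in the same order.

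**Figure D2:**
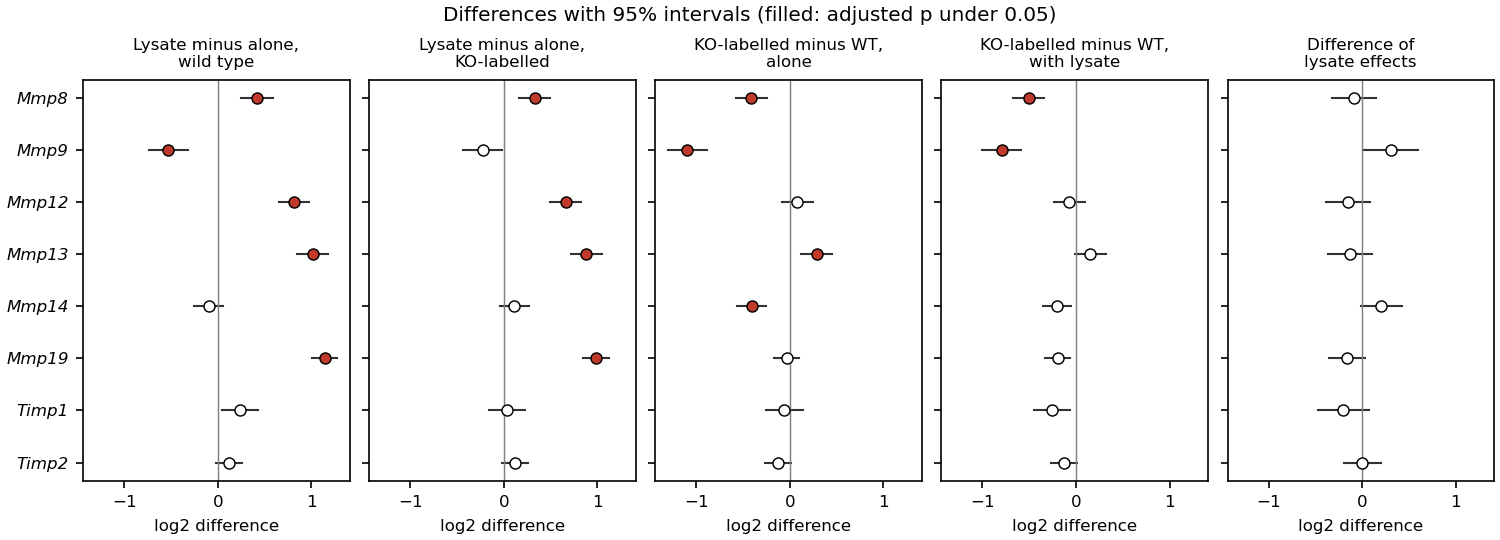
Log2 difference of each gene (x axis) in the 5 comparisons (panels), with 95% intervals of the limma fit; filled points have an adjusted p under 0.05. The lysate panels show Mmp12, Mmp13 and Mmp19 far above 0 in both genotypes, and the genotype panels show Mmp9 and Mmp8 below 0 in both treatments.

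Transcripts on a list of melanocyte and B16 markers were higher in the same libraries, and their source was not tested. For each marker list below, the share over all genes tested was 10.2% that rose and 11.3% that fell in wild type. In KO-labelled cells it was 8.28% and 6.92%. Of 7 measured melanocyte and B16 markers (of 13 listed) 6 rose and 0 fell in each genotype. The log2 of their summed level was 16.15 to 16.19 in wild type alone against 16.84 to 16.85 with lysate, and 16.05 to 16.10 against 16.65 to 16.68 in KO-labelled cells. That sum is mostly Gpnmb, which myeloid cells also express and which went from a mean of 16.15 to 16.83 in wild type. Dct, which makes melanin, went from 4.75 to 5.88 in wild type and stayed well under the library medians. Of 7 osteoclast-type markers 3 rose and 1 fell in each genotype, with a median difference of -0.099 in wild type and 0.117 in KO-labelled cells. The acid phosphatase Acp5 (0.68 in wild type) and the proton pump subunit Atp6v0d2 (1.01) rose. Dcstamp fell, by -0.63 in wild type and -0.40 in KO-labelled cells. The summed level of the 7 markers was 13.24 to 13.31 in wild type alone and 13.75 to 13.81 with lysate. In KO-labelled cells it was 13.22 to 13.27 alone and 13.60 to 13.61 with lysate. Of 18 macrophage and monocyte markers 3 rose and 7 fell in wild type (4 fell when wild-type alone replicate 2 or, separately, wild-type lysate replicate 1 was left out), and 4 rose and 1 fell in KO-labelled cells. Of 14 dendritic cell markers 8 fell in wild type (5 when wild-type lysate replicate 1 or either KO-labelled lysate library was left out) and 7 in KO-labelled cells (4 when either of its lysate libraries was left out), and 0 rose. The part of these transcripts in the lysate differences was not tested.

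The second question was whether the genotype labels differed. Mmp9 was the gene with the largest difference of the set, 2.14-fold lower in KO-labelled cells alone, and Mmp8 was lower as well, in both treatments. Without lysate 3 of the 8 genes were lower in KO-labelled cells and 1 was higher, where 9.23% of all genes were lower and 7.02% higher. With lysate 2 were lower and 0 higher, where 5.45% and 7.44% of all genes were. The median over the 8 genes was -0.096 without and -0.20 with lysate, beside 0.002 and -0.008 over all genes tested. The genotype comparisons use the same libraries as the lysate comparisons, so they are not independent of them.

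Mmp9 was 2.14-fold lower in KO-labelled cells alone (-1.10 ± 0.097, adjusted p = 1.31e-05) and 1.73-fold lower with lysate (-0.79 ± 0.097, adjusted p = 0.000336). By size of decrease it ranked 22 and 20 among the 11785 genes. Every KO-labelled library lay below every wild-type one. Mmp9 lies on chromosome 2, which also carries Ythdf1, and the part of this position in the difference was not tested. Mmp8 was 1.33-fold lower in KO-labelled cells alone (-0.42 ± 0.078, adjusted p = 0.00264) and 1.42-fold lower with lysate (-0.50 ± 0.078, adjusted p = 0.00132). Without KO-labelled lysate replicate 1 the latter missed the threshold (-0.47, adjusted p = 0.0512).

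Mmp14 was at 12.37 and 12.50 in wild type alone, 12.31 and 12.37 in wild type with lysate, 12.09 and 11.95 in KO-labelled alone, and 12.12 and 12.14 in KO-labelled with lysate. All 4 KO-labelled libraries lay below all 4 wild-type ones. The difference was 1.33-fold without lysate (-0.41 ± 0.072, adjusted p = 0.00173) and -0.20 ± 0.072 with lysate (-0.36 to -0.048, adjusted p = 0.0795). Mmp13 was 1.22-fold higher in KO-labelled cells alone (0.28 ± 0.077, adjusted p = 0.0218), a call lost without wild-type alone replicate 2 (0.21, adjusted p = 0.172), without KO-labelled alone replicate 2 (0.21, adjusted p = 0.127) and in a fit of those groups alone (adjusted p = 0.0783). With lysate its difference was 0.15 ± 0.077 (-0.011 to 0.32, adjusted p = 0.202).

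The remaining genotype differences missed the threshold. With lysate they were -0.20 ± 0.062 for Mmp19 (adjusted p = 0.0543), -0.26 ± 0.09 for Timp1 (adjusted p = 0.0729), -0.13 ± 0.064 for Timp2 (adjusted p = 0.199) and -0.072 ± 0.076 for Mmp12 (adjusted p = 0.574). Without lysate they were -0.13 ± 0.064 for Timp2 (adjusted p = 0.198), 0.08 ± 0.076 for Mmp12 (adjusted p = 0.544), -0.059 ± 0.09 for Timp1 (adjusted p = 0.723) and -0.035 ± 0.062 for Mmp19 (adjusted p = 0.764). Mmp19 and Timp1 with lysate thus lay closer to the threshold than the same genes without it, which is no test of a difference between treatments. Tmem198b, which overlaps Mmp19, was higher in KO-labelled cells alone by 0.374 (adjusted p = 0.0204, limma) and with lysate by 0.515 (adjusted p = 0.00522, limma). Syn1, which overlaps Timp1, passed in neither.

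Neutrophil transcripts differed between the genotype labels in the same direction as Mmp8 and Mmp9. Of 15 measured neutrophil markers (of 17 listed) 13 were lower in KO-labelled cells alone and 12 with lysate, and 0 were higher. Over all genes tested 9.23% were lower alone and 5.45% with lysate, and 7.02% and 7.44% were higher. Ngp, a granule protein, differed by -1.55 without and -1.64 with lysate, Lcn2, which forms a complex with MMP9 in humans, by -1.33 and -1.37, and S100a9, a calprotectin subunit, by -1.59 and -1.45. The log2 of the summed marker level was 14.25 to 14.30 in wild type alone, 13.96 to 14.21 in wild type with lysate, 12.79 to 12.88 in KO-labelled alone and 12.72 to 12.83 in KO-labelled with lysate. Without lysate 10 of 18 macrophage and monocyte markers were lower as well, led by Ly6c2 (-1.27), and 5 with lysate (2 without KO-labelled lysate replicate 1). Their summed level was 17.75 in both libraries of wild type alone, 17.54 to 17.55 in wild type with lysate, and between 17.24 and 17.29 in all KO-labelled libraries. Among 14 dendritic cell markers 5 were higher and 1 lower without lysate, and 9 higher and 0 lower with it. The count of 9 was smaller without wild-type lysate replicate 1 or either KO-labelled lysate library, and so was the count over all genes tested. In bulk RNA, fewer cells of a type and less transcript per cell cannot be told apart, and the part of these cells in the Mmp8 and Mmp9 differences was not tested.

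**Figure D3:**
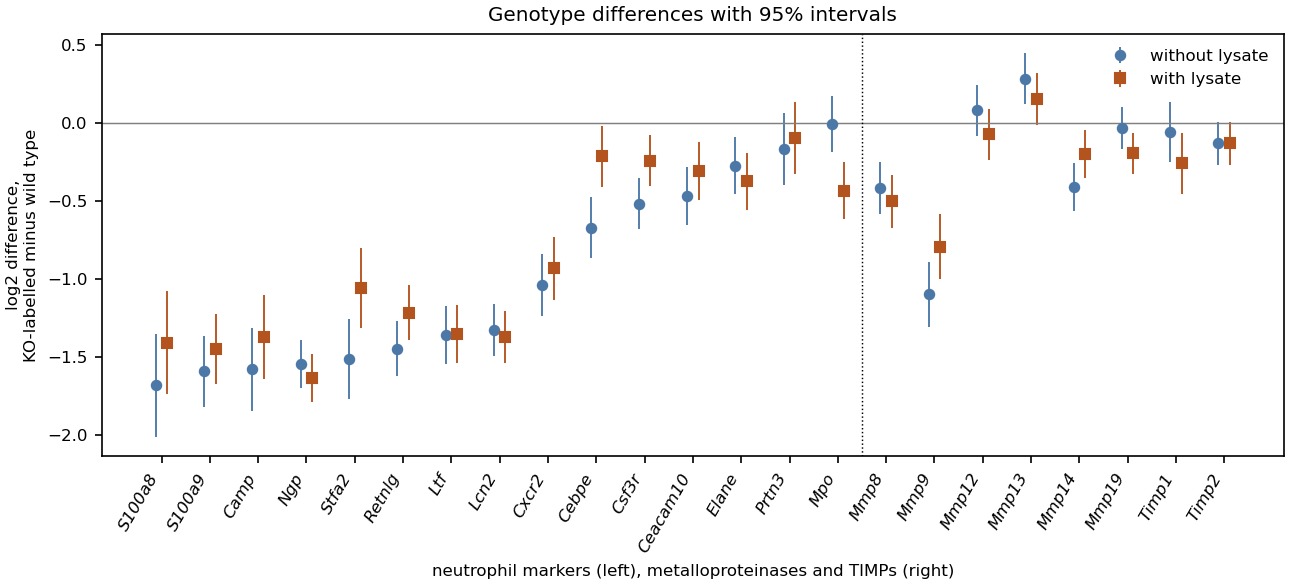
Log2 difference between KO-labelled and wild type (y axis) for 15 neutrophil markers, left of the dotted line and ordered by their difference without lysate, and for the 8 genes described, right of it; circles are cells alone, squares cells with lysate, bars 95% intervals. Mmp9 (-1.10 and -0.79) and Mmp8 (-0.42 and -0.50) lie on the same side of 0 as most of the neutrophil markers.

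Whether the lysate effect differed between genotypes was tested directly. None of the 8 genes passed (limma, with 0.11% of all genes called), and 1 had an unadjusted p under 0.05. That gene was Mmp9, whose fall was less deep in KO-labelled cells by 0.31 ± 0.14 (95% interval 0.011 to 0.60, adjusted p = 0.573 by limma). The lysate effect of Mmp19 was smaller in KO-labelled cells by 0.16 on the log2 scale (interval of the difference -0.35 to 0.029), that of Mmp12 by 0.15 (-0.38 to 0.08) and that of Mmp13 by 0.13 (-0.36 to 0.10). For Mmp14 the difference of the effects was 0.21 (-0.011 to 0.43), for Timp1 -0.20 (-0.47 to 0.073), for Mmp8 -0.089 (-0.33 to 0.15) and for Timp2 0.002 (-0.19 to 0.20).

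**Figure D4:**
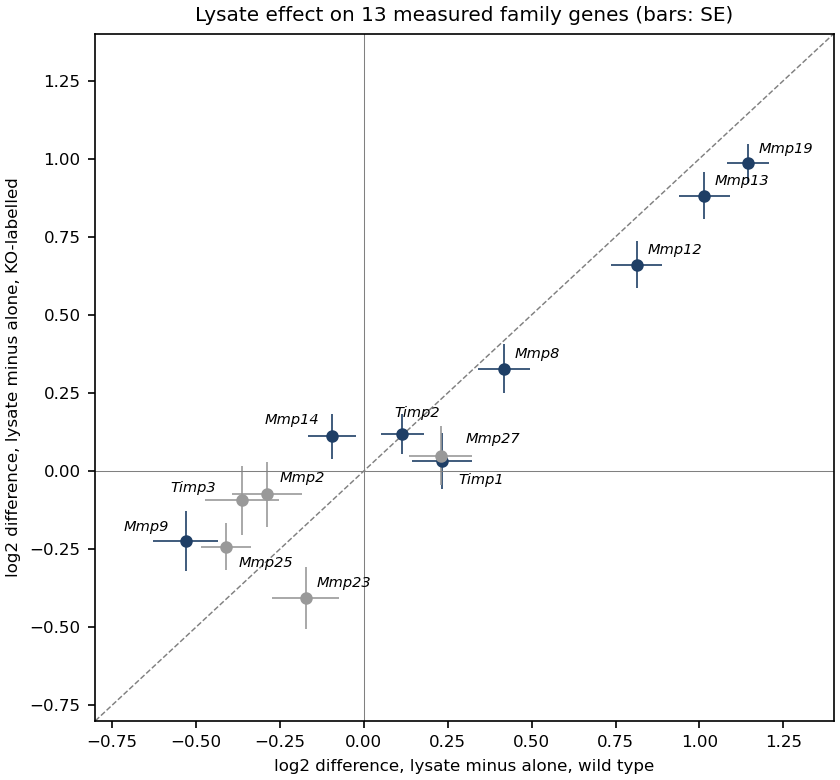
Log2 difference with lysate in wild type (x axis) and in KO-labelled cells (y axis) for the 13 measured metalloproteinase and TIMP genes; bars are SE of the limma fit, dark points the 8 genes described, grey points the other 5, and the dashed line marks equal effects. Mmp8, Mmp12, Mmp13 and Mmp19 lie at the upper right, below the dashed line.

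Of the 27 mouse genes with an Mmp or Timp symbol in the annotation, 13 were in the table. The other 5 were Mmp2, Mmp23, Mmp25, Mmp27 and Timp3, and none of them rose with lysate in either genotype. Mmp25 encodes a membrane-anchored metalloproteinase of leukocytes and stood at 12.85 and 12.92 in wild type alone, 12.55 and 12.41 in wild type with lysate, a mean of 13.08 in KO-labelled alone, and 12.87 and 12.81 in KO-labelled with lysate. It fell with lysate by 0.41 in wild type (adjusted p = 0.00215) and by 0.24 in KO-labelled cells (adjusted p = 0.0443, lost without KO-labelled alone replicate 1 and without either KO-labelled lysate library). Between genotypes it ran opposite to Mmp8 and Mmp9, higher in KO-labelled cells with lysate by 0.36 (adjusted p = 0.00768, lost without wild-type lysate replicate 2 or either KO-labelled lysate library), and its difference without lysate was 0.20 (adjusted p = 0.0964). Bicdl2, which overlaps it, was higher in KO-labelled cells alone by 0.33 (adjusted p = 0.0257), and its difference with lysate was 0.27 (adjusted p = 0.0716).

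Mmp23, a metalloproteinase without the hemopexin domain of most of the family, was higher in KO-labelled cells alone by 0.48 (adjusted p = 0.00516, and 0.0503 without wild-type alone replicate 1) and fell with lysate there by 0.41 (adjusted p = 0.0159, lost without KO-labelled alone replicate 1 or either KO-labelled lysate library). It overlaps Mib2, whose difference between genotypes was 0.019 without lysate (adjusted p = 0.923, limma) and 0.245 with it (adjusted p = 0.0982). With lysate the difference of Mib2 was -0.321 in wild type (adjusted p = 0.0263, limma) and -0.095 in KO-labelled cells (adjusted p = 0.529). Timp3, an inhibitor bound to the matrix, fell with lysate in wild type by 0.36 (adjusted p = 0.0322), a call lost when wild-type alone replicate 1 or any 1 of the 4 lysate libraries was left out. It overlaps Syn3, whose own lysate difference in wild type was -0.15 (adjusted p = 0.181). Syn3 was higher in KO-labelled cells by 0.41 without and 0.62 with lysate. Mmp2, gelatinase A, had a mean of 5.86 in wild type alone and passed the test in no comparison, and neither did Mmp27, the chromosome 9 neighbour of Mmp8, at a mean of 5.43. Both means lie near the low end of the table, which starts at 3.24.

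Genes that activate, inhibit or dock metalloproteinases were described from a list of 29, of which 22 were measured. With lysate 7 of the 22 rose and 2 fell in wild type, where 10.2% of all genes tested rose and 11.3% fell. In KO-labelled cells 6 rose and 0 fell, where 8.28% and 6.92% of all genes did. Leaving out 1 library at a time gave 3 to 7 that rose in either genotype, with 4 in wild type without wild-type alone replicate 2, 3 without wild-type lysate replicate 1, and 3 in KO-labelled cells without KO-labelled lysate replicate 1. Plau, urokinase, which generates the plasmin that activates several precursors, rose by 0.81 in wild type and by 0.52 in KO-labelled cells. Itgav, an integrin subunit, rose by 0.66 in wild type and by 0.44 in KO-labelled cells. Cd9, a tetraspanin, rose by 0.34 in wild type, and its difference in KO-labelled cells was 0.02 (adjusted p = 0.865). Lrp1, an uptake receptor that clears MMP9 and TIMP1, rose by 0.47 in KO-labelled cells, and its difference in wild type was 0.18 (adjusted p = 0.0923). None of the 22 genes passed the test of a difference between the lysate effects.

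Between genotypes 12 of these 22 genes were lower and 0 higher in KO-labelled cells alone, where 9.23% and 7.02% of all genes were. With lysate 9 were lower and 1 higher, where 5.45% and 7.44% of all genes were. The first count was 6 without wild-type alone replicate 2 or KO-labelled alone replicate 2. The second was 3 without wild-type lysate replicate 1 or KO-labelled lysate replicate 2, 5 without wild-type lysate replicate 2 and 1 without KO-labelled lysate replicate 1. Besides Lcn2, which is also a neutrophil marker, these were led by Cd82 (-0.46) and Itgb2 (-0.37) without lysate and by Cd9 (-0.43), Cd44 (-0.39), which docks MMP9 on the cell surface, and Bsg (-0.33), an inducer of metalloproteinases, with lysate. A list of ADAM and ADAMTS genes, with the ADAMTS-like Adamtsl4 and Adamtsl5 included, had 10 measured of 20 listed. Of these 10, 2 were higher and 1 lower in each genotype comparison. Adam19 (0.43 without and 0.58 with lysate) and Adam23 (0.30 and 0.28) were higher, and Adam17, the sheddase of TNF, was lower (-0.44 and -0.32). With lysate 3 rose and 2 fell in wild type, where 10.2% and 11.3% of all genes did. In KO-labelled cells 2 rose and 1 fell, where 8.28% and 6.92% of all genes did. Leaving out 1 library at a time moved these ADAM counts to between 0 and 4, among them 1 that rose in wild type without wild-type lysate replicate 2, 4 that rose in KO-labelled cells without KO-labelled alone replicate 2, and 3 lower in KO-labelled cells alone without that same library.

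Likeness between profiles was measured as the root mean square difference of log2 levels over the 8 libraries after each gene was centred on its own mean. Within the set the closest metalloproteinases were Mmp12 and Mmp13 (0.153), Mmp12 and Mmp19 (0.181) and Mmp13 and Mmp19 (0.184). Timp1 and Timp2 were at 0.066, since neither moved much. Over the whole table the 3 genes closest to Mmp19 were Bcar3, Mgll and Rgl1 (0.0472 to 0.0746, where Mmp19 itself varied by 0.537). Those closest to Mmp12 were Vcl, Nrp1 and Serpinb9b (0.0392 to 0.0558, own variation 0.375), and to Mmp13 Akr1b8, Gask1b and Zranb3 (0.10 to 0.121, own variation 0.491). Mmp8 ran closest to Cd38, Tlr4 and Pid1 (0.035 to 0.0596, own variation 0.304), and Mmp9 to Tlr2, Rflnb and Ly6c1 (0.116 to 0.124, own variation 0.521). For Mmp14 they were Tnfrsf14, Slc35c2 and Ikbke (0.0326 to 0.0368, own variation 0.169). For Timp1 they were Rwdd4a, Trappc1 and Atp6v1g1 (0.0311 to 0.036, own variation 0.124), and for Timp2 Psme3, Ctns and Nudt13 (0.0223 to 0.0238, own variation 0.0887). No gene of the set was among the 3 closest to another, and these distances are a description with no test.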

How the data were processed

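Expression was measured by RNA sequencing with a stranded mRNA kit, per the labels' protocols. The deposited log2 values were read as the authors' regularized logarithm of counts per Entrez gene made with DESeq2, inferred from the table's name. The submitters' processing notes list STAR, DESeq2, deepTools and mm9. No source used here gives the counting tool, its strand setting or the gene filter, so values of overlapping genes are uncertain. Genes with few reads are shrunk towards their mean on this scale. The files hold no counts, so depth and counting error are unknown.

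Groups and replicate numbers came from the titles. Symbols came from the GRCm38.p6 RefSeq table, which matched 11744 of 11786 identifiers. Genes with a largest group mean of at least 4 were tested, which removed 1. Tests used limma 3.58.1 under R 4.3.3 (group means of all 8 libraries in 1 fit, with eBayes with a mean-variance trend, 4 residual degrees of freedom), two-sided and adjusted over 11785 genes, and the procedure was tested on simulated data. Figures used Python 3.11.15 with matplotlib 3.10.9. The genes and lists were chosen with earlier results of these data known. Besides the 8 genes, the text names the other measured family genes, the called genes of each list with the smallest p (up to 4 per comparison, not all printed), the 3 nearest profiles of each gene, and, the genes that overlap the family. S100a9, and the second comparison given for some list genes, were chosen after their values were seen. Alternatives were a replicate block, other filters, scalings, variance models, thresholds and subsets of libraries.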

Additional observations from a re-analysis of the deposited data

How the results depend on the processing

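Counts of genes called, in the order lysate in wild type, lysate in KO-labelled cells, genotype without lysate, genotype with lysate and difference of the lysate effects, were 5, 4, 4, 2 and 0. With the replicate number as a block (replicate block) they were also 5, 4, 4, 2 and 0. The numbers were not shown to pair the libraries: the correlations of the differences between replicates ran from -0.61 (wild type alone with KO-labelled alone) to 0.26. A block with the numbers of KO-labelled alone exchanged, chosen after the data were seen, gave 5 for the genotype with lysate and left the other 4 counts as they were. That same count was 5 at a threshold of 0.1, 4 in a fit of only the groups compared (Mmp14 and Mmp19 in addition), and between 1 and 2 when 1 library was left out. The other counts stayed within 1.5 times under every alternative run. Over all 11785 genes tested, the main fit called 877 higher and 642 lower for the genotype with lysate. The exchanged block called 2638 of 11785 there, and the fit of only the groups compared called 2270 of 11750.

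Among single values under alternatives, 650 kept their direction and side of the threshold and 10 changed sign, and none of these passed the test in either setting. With one median per library the difference of effects of Timp2 was -0.006. With quantile normalization Mmp19 between genotypes without lysate was 0.008, Mmp12 with lysate 0.044, and the difference of effects of Mmp12 0.024. Over the fits without 1 library, Timp2's difference of effects ranged from -0.016 to 0.021, Mmp12 between genotypes with lysate from -0.15 to 0.004, and Timp1 with lysate in KO-labelled cells from -0.012 to 0.076. A further 7 values lost their call and 5 gained one. The rises of Mmp12, Mmp13 and Mmp19 and the genotype differences of Mmp9 passed under all 17 alternatives. Depth is unknown, so what it limits could not be given.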

Other observations

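Over all genes tested 9.23% were lower and 7.02% higher in KO-labelled cells alone, and 5.45% and 7.44% with lysate. With lysate 10.2% rose and 11.3% fell in wild type, and 8.28% and 6.92% in KO-labelled cells. Matrix proteins and their modifying enzymes also differed between the genotype labels. Of 24 measured genes of that list (of 32 listed) 11 were lower and 1 higher in KO-labelled cells alone, among them the crosslinking enzyme Tgm2 (-0.70), the proteoglycan Vcan (-0.82), Tgfbi (-0.56) and fibronectin, Fn1 (-0.50). The count lower was 7 without wild-type alone replicate 2. With lysate 7 were lower and 2 higher, and Fn1 (-0.52) was lower again, while the count lower was 2 without wild-type lysate replicate 1, 4 without its replicate 2, 1 when replicate 1 of KO-labelled with lysate was left out and 2 for its replicate 2. With lysate in wild type 8 of the 24 fell, among them Col1a1 (-0.78) and Col1a2 (-0.53), and 2 rose, the collagen hydroxylase subunit P4ha1 (0.68) and osteopontin, Spp1 (0.71), a substrate of several metalloproteinases. The 8 became 4 when wild-type alone replicate 2 or, separately, wild-type lysate replicate 1 was left out, and 3 without wild-type lysate replicate 2. In KO-labelled cells 5 rose, P4ha1 (0.58) and Spp1 (0.52) among them, and 1 fell; 2 rose when replicate 1 of KO-labelled with lysate was left out and 3 for its replicate 2. Of 12 fibroblast and stroma markers 5 were measured. In KO-labelled cells alone 3 of them were lower, Col1a1 (-0.62), Col1a2 (-0.52) and Fap (-0.30), and 0 were called by limma between genotypes with lysate (0 at an unadjusted p under 0.05). With lysate in wild type Col1a1 and Col1a2 fell, and in KO-labelled cells 0 of the 5 were called (1 at an unadjusted p under 0.05). Their part in the differences of the matrix genes was not tested. Both collagens lay below the library medians in every group, at means of at most 6.32.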
